A study of Mus musculus with 45 samples.

Results

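The serine synthesis enzymes and the genes of the ATF4 response were followed through 45 strand-specific RNA-seq libraries of differentiating male mouse embryonic stem cells (ESCs). The 10 genes were taken by symbol from the 35372 genes of the deposited count tables, and they are Atf4, Ddit3, Trib3, Chac1, Asns, Phgdh, Psat1, Psph, Shmt2 and Mthfd2. Each symbol occurred once, and all 10 passed the filter on low counts in every comparison. The cells were wild-type E14tg2a ESCs of the 129/Ola background, which is 1 cell line, so the values describe that line. They had been kept either in 2iL, a serum-free N2B27 medium with LIF and inhibitors of MEK and GSK3, or in SL, a medium of serum and LIF. Cells from each medium were differentiated in suspension in serum as embryoid bodies (labelled EB), as an adherent culture in N2B27 with Fgf2 and Activin A (labelled EpiSC, called FA here), or as an adherent culture in N2B27 alone (labelled Neural, called serum-free here). The FA course held no serum either, and the name serum-free is kept here for N2B27 alone. Libraries were made at days 0, 1, 1.5, 2, 2.5, 3, 5 and 7. There was 1 library for each starting medium, course and day, a single SL library at day 0 for all 3 courses, and day 5 of the FA course from 2iL was not analysed here. The 3 courses of a day therefore served as its replicates. Except between media at day 0, the main fits took out a steady difference between courses. Their p-values measure the scatter left after that, not the spread between repeat cultures. Where courses are compared with each other, the spread is the scatter over days and media within a course, so that successive days of a course stand in for replicates and are not independent cultures. The serum course differs from the others in its serum, its growth in suspension, its base medium and the number of cells plated. The study's serum medium was based on GMEM rather than N2B27. These differences cannot be told apart.

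Serine is made from an intermediate of glycolysis in 3 steps, and it feeds glycine and the folate-bound carbon units that nucleotide synthesis uses. When amino acids run short or unfolded protein accumulates, kinases phosphorylate the translation factor eIF2 alpha, protein synthesis slows, and the mRNA of Atf4 is translated more. The ATF4 protein then switches on genes for making, importing and charging amino acids, the serine pathway among them. Because ATF4 is controlled largely at translation, its own mRNA is not a measure of its activity.

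The totals ran from 13093226 to 39804240 counts per library, with a median of 18222720, and the 8 serum-course libraries from 2iL had the greater depth, at 34490692 in the median. The lowest count of any of the 10 genes in a library was 32, for Ddit3. At the median depth 3 counts correspond to 0.165 CPM (the count scaled to a library total of 1000000), so none of the values below is near the floor that counting sets. The labels were checked against markers. The summed level of the 5 naive pluripotency markers (Nanog, Zfp42, Esrrb, Tfcp2l1 and Klf4) was 3891 to 4133 CPM at day 0 in 2iL and 2287 in SL, and 45.4 to 1214 in the later libraries. Fibroblast markers (Col1a1, Col1a2, Col3a1 and Postn) summed to 1.37 to 2.36 CPM at day 0 but reached 772 at day 7 of the FA course from 2iL. In such bulk libraries, fewer cells of a type and less RNA per cell cannot be told apart.

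Members of the response are often reached through an 8-base composite element for ATF4 and its C/EBP partners, whose letters are TGATGNAA. The promoter windows of RefSeq, from 250 bases before to 50 bases after a gene's start, were searched for these letters on both strands. They occur in 1304 of 32851 windows (3.97%), and in windows of 3 of the 10 genes, Trib3, Chac1 and Asns. The stricter form TGATGCAA, a subset of these matches, occurs in 294 windows (0.895%) and in 1 of the 10 genes, Chac1. The stretches of 30 bases around the matches are shown because these genes had some of the largest differences described here. The match is in capitals, each stretch is written along its gene's strand, and in Trib3 and Chac1 the match reads on the opposite strand. Distances are counted from the RefSeq start, which is base 152344060 for Trib3, 119351242 for Chac1 and 7693209 for Asns. These differ from the outer ends of the GENCODE genes given below, from which the match in Trib3 is before the gene and that in Asns is inside it.
Trib3, GRCm38.p6 chr2:152344028-152344057, minus strand, 14 to 21 bases after the RefSeq start: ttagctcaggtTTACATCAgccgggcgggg
Chac1, GRCm38.p6 chr2:119351038-119351067, plus strand, 193 to 186 bases before the RefSeq start: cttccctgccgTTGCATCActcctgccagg
Asns, GRCm38.p6 chr6:7693214-7693243, minus strand, 23 to 16 bases before the RefSeq start: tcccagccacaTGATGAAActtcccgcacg
A match is a description of the letters. No binding was measured, and the other 7 genes are only without these letters in this window.

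Apart from Atf4 itself, the regulators and Chac1 were the less abundant group. Atf4 (ENSMUSG00000042406, chr15:80255184-80257541 on GRCm38) encodes the transcription factor of the response and ranged from 106 to 375 CPM, the smallest relative range of the 10, with the highest value 3.54 times the lowest. Ddit3 (ENSMUSG00000025408, chr10:127290774-127296288) encodes CHOP, a C/EBP-family factor linked to stress-induced cell death, and ranged from 1.33 to 33.7 CPM. Trib3 (ENSMUSG00000032715, chr2:152337422-152344032) encodes a pseudokinase that restrains ATF4 and ranged from 3.44 to 45.5 CPM. Chac1 (ENSMUSG00000027313, chr2:119351229-119354381) encodes an enzyme that degrades glutathione and had the widest range, from 1.09 to 71.4 CPM, or 65.7-fold. The lowest counts behind these 4 ranges were 1512, 32, 91 and 36.

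The other enzymes spanned narrower ranges than Ddit3, Trib3 and Chac1. Asns (ENSMUSG00000029752, chr6:7675169-7693254), asparagine synthetase, ranged from 79.7 to 682 CPM. Phgdh (ENSMUSG00000053398, chr3:98313170-98339990), which catalyses the first step of serine synthesis, ranged from 61.7 to 316 CPM. It is the least certain of the genes, because 9 other annotated genes hold copies at least 95% identical over 200 bases or more, none of which has a row in the files, and how reads with several positions were counted is not given in the sources used here. Psat1 (ENSMUSG00000024640, chr19:15904678-15947337), the aminotransferase of the second step, ranged from 108 to 597 CPM. Psph (ENSMUSG00000029446, chr5:129765558-129787449), the phosphatase of the last step, ranged from 12.3 to 48.7 CPM, and it shares 452 exon bases with Cct6a on the opposite strand, which the strand-specific counting separates. Shmt2 (ENSMUSG00000025403, chr10:127517123-127522444), which turns serine into glycine in mitochondria, ranged from 53.2 to 255 CPM. Mthfd2 (ENSMUSG00000005667, chr6:83305691-83325908), the next mitochondrial enzyme of folate metabolism, ranged from 29.8 to 187 CPM. Of the 10 genes, 8 had their highest value in the FA course from 2iL at day 3, which leaves Ddit3 (serum from 2iL at day 7) and Asns (day 0 in 2iL). That is a single library, in a course whose day 5 was not analysed here. The share of all genes highest in it was not counted. Divided by the exon length in kilobases, so that genes can be compared, the median levels over all libraries were 79.1 CPM per kilobase for Atf4, 75.7 for Asns, 58.2 for Phgdh and 57.5 for Psat1. Shmt2 followed at 41.9 and Mthfd2 at 18.8, and Chac1 (5.61), Trib3 (5.19), Psph (4.98) and Ddit3 (2.94) were lowest.

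**Figure D1:**
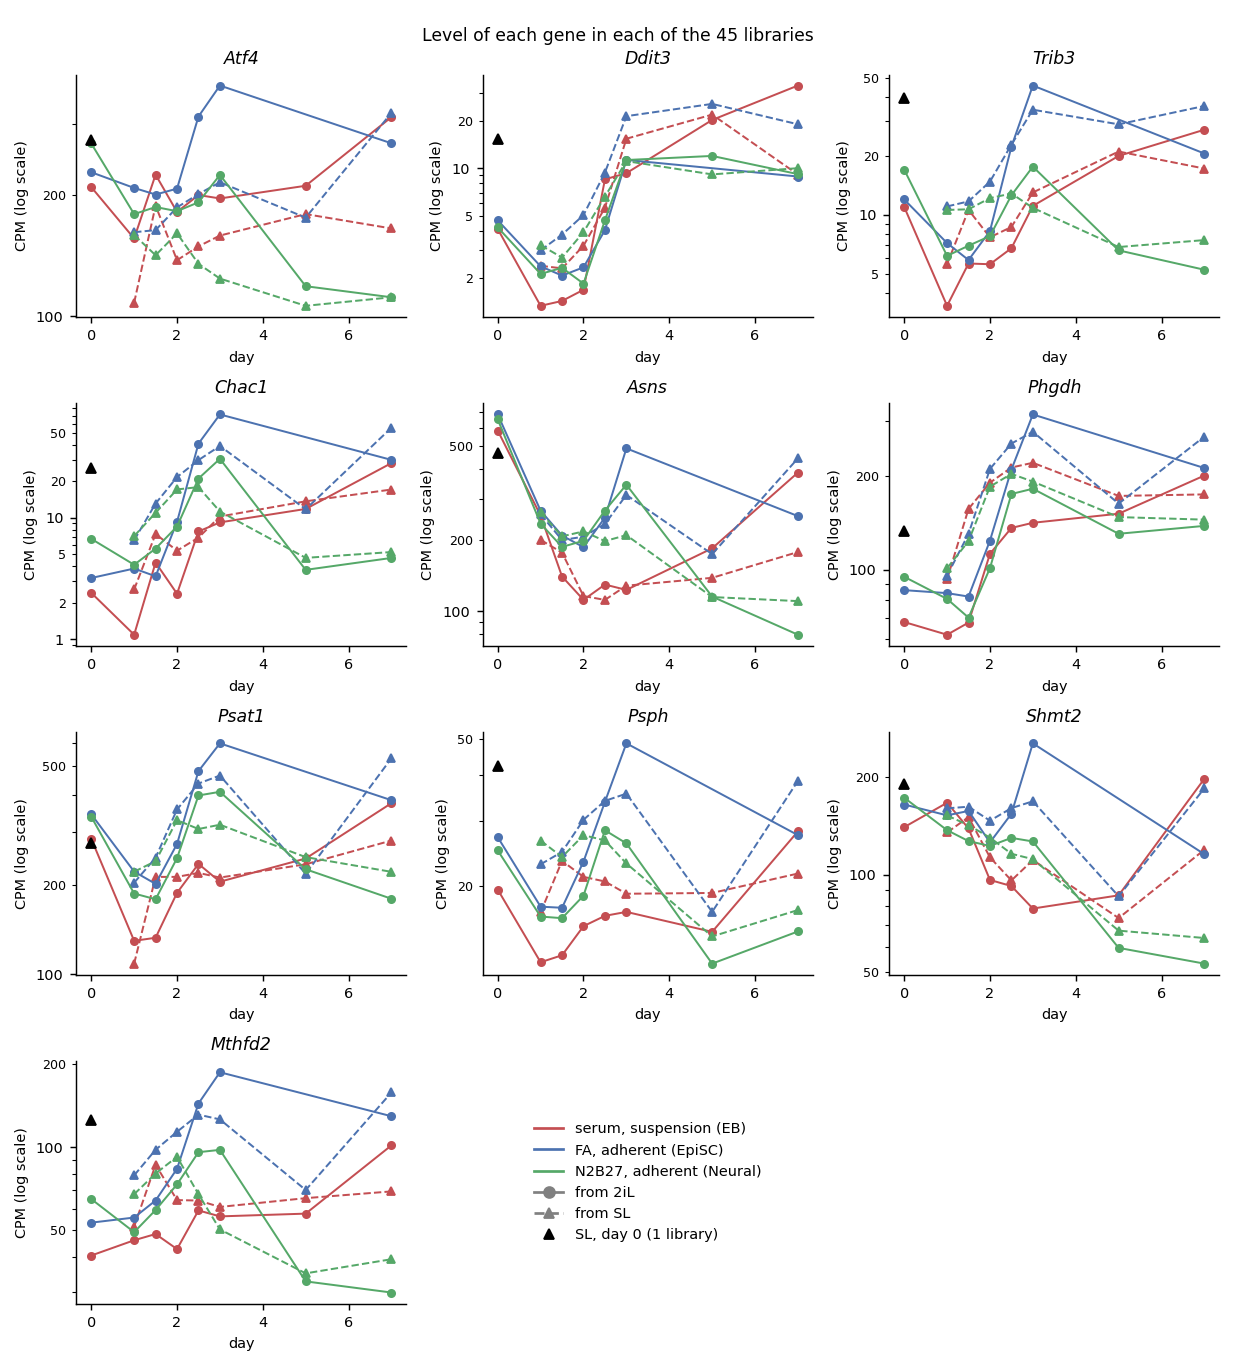
CPM of each gene (log axis) against the day in all 45 libraries, with 1 point per library, colours for the courses, solid lines and circles for cells from 2iL, and dashed lines and triangles for cells from SL. The FA course from 2iL, drawn without day 5, is highest in its single day 3 library for 9 genes, a share not counted over all genes. Asns starts at 583 to 682 CPM in 2iL and is at 235 to 267 a day later.

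The first comparison asked what happened to these genes on leaving self-renewal. From 2iL, Asns was at 583, 682 and 650 CPM at day 0 in the serum, FA and serum-free courses, in that order, and at 254, 267 and 235 CPM at day 1. The groups did not overlap, and the log2 fold change was -1.35 (SE 0.48, adjusted p = 0.045). Psat1 was at 285, 345 and 338 CPM at day 0 and at 129, 221 and 187 at day 1, again without overlap, with a log2 fold change of -0.90 (SE 0.28, adjusted p = 0.024). Thus Asns and Psat1 fell, and the other 8 did not pass the test, while 14% of the 16306 genes tested were called lower. All 10 fold changes were below 0, with a median of -0.62 beside 0.02 over all genes tested. Ddit3 went from 4.10, 4.66 and 4.201 CPM to 1.33, 2.37 and 2.12, also without overlap, but the fitted change of -1.17 had an SE of 0.45 and an adjusted p of 0.060. Trib3 went from 10.97, 12.0 and 17.0 CPM to 3.44, 7.18 and 6.18 (log2 fold change -1.34, SE 0.57, adjusted p = 0.088). The spread in this fit came from all days, on which the courses later part. When only the 6 libraries of days 0 and 1 were fitted, an alternative added after the values were seen, 6 genes were lower, with Atf4, Ddit3, Trib3 and Psph besides the former pair, and Asns had a log2 fold change of -1.36 (SE 0.09, adjusted p = 7.9e-05). Without the course as a block no gene was called lower (Asns, adjusted p = 0.055), and the same was so without the FA or the serum-free course.

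From SL the largest fold changes were those of Chac1, Ddit3 and Trib3. The level of Chac1 was 25.8 CPM at day 0, and at day 1 it was 2.57, 6.54 and 7.08 CPM in serum, FA and serum-free culture (log2 fold change -2.25, SE 0.76, adjusted p = 0.0496). Ddit3 was at 15.5 CPM at day 0 and at 2.39, 2.999 and 3.24 at day 1 (-2.36, SE 0.35, adjusted p = 0.00067). Trib3 was at 39.4 CPM and then at 5.62, 11.04 and 10.6 (-2.07, SE 0.53, adjusted p = 0.015). The fourth gene called was Psph, at 42.4 CPM and then at 16.9, 22.9 and 26.5 (-0.90, SE 0.30, adjusted p = 0.046). These 4 of the 10 genes fell where 9.69% of the 16482 genes tested were called lower. The median log2 fold change of the 10 genes was -0.89, beside -0.01 over all genes tested. Every day 1 library lay below the day 0 library for all 10 genes, and the share of all genes for which this held was not counted. Day 0 has no replicate in SL, so its spread is assumed to be that of the other days. Without the filter on low counts Ddit3 and Trib3 remained of the 4, and without the serum or the FA course Ddit3 alone remained.

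**Figure D2:**
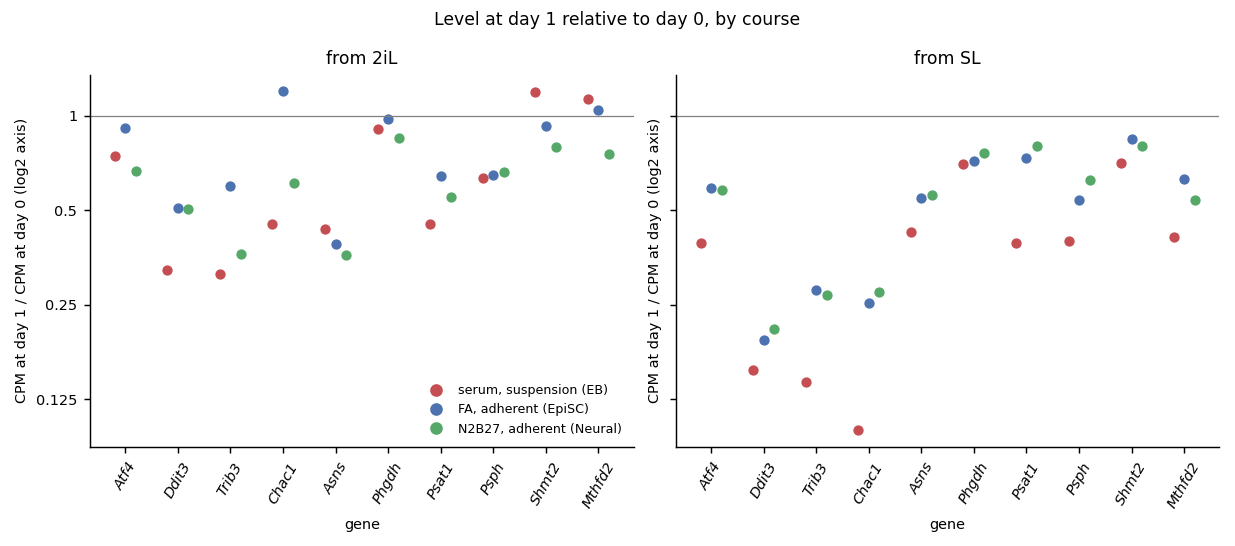
Ratio of CPM at day 1 to CPM at day 0 for each gene (log2 axis), with 1 point per course, for cells from 2iL on the left and from SL on the right, where all 3 courses share the day 0 library. From SL all points lie under 1, with Chac1 lowest in serum. From 2iL the points of Asns lie together, and those of Phgdh, Shmt2 and Mthfd2 are near 1.

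Between days 2 and 3 most of the genes turned upward again in the cells from 2iL. This comparison of days 2.5 and 3 with days 1, 1.5 and 2 was chosen after the values were seen. In the FA course Chac1 was at 3.82, 3.30 and 9.29 CPM on days 1, 1.5 and 2 and at 41.03 and 71.4 on days 2.5 and 3. In the serum-free course it went from 4.11, 5.58 and 8.50 CPM to 21.1 and 30.7, and in serum from 1.09, 4.28 and 2.37 to 7.73 and 9.19. Every later value was above every earlier value of its course, and the log2 fold change was 2.51 (SE 0.49, adjusted p = 0.00058). Ddit3 rose by 1.95 (SE 0.28, adjusted p = 3.9e-05) and Trib3 by 1.41 (SE 0.36, adjusted p = 0.0042). All 3 serine synthesis enzymes rose as well. Phgdh, which had been at 61.7 to 124 CPM on the early days, was at 136 and 141 CPM in serum, 210 and 316 in FA and 175 and 182 in serum-free culture (log2 fold change 1.1, SE 0.12, adjusted p = 4.4e-06). Psat1 rose by 0.93 (SE 0.18, adjusted p = 0.00052) and Psph by 0.68 (SE 0.17, adjusted p = 0.0042). Mthfd2 rose by 0.76 (SE 0.26, adjusted p = 0.024), while Atf4, Asns and Shmt2 did not pass the test. In all, 7 of the 10 genes were higher where 25.3% of all genes tested were called higher. Without the FA course, 4 were called, which left out Trib3, Psph and Mthfd2.

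From SL, 3 of the 10 genes were higher on days 2.5 and 3 than on days 1, 1.5 and 2, where 21.8% of all genes were. Ddit3 was at 2.39, 2.30 and 3.21 CPM on the early days in serum and at 5.61 and 15.4 later. It went from 2.999, 3.78 and 5.03 to 9.39 and 21.5 in FA, and from 3.24, 2.70 and 3.92 to 6.60 and 11.1 in serum-free culture (log2 fold change 1.69, SE 0.17, adjusted p = 2.6e-06). The other genes called were Phgdh (0.70, SE 0.10, adjusted p = 4.6e-05) and Psat1 (0.45, SE 0.15, adjusted p = 0.029). Without the serum-free course 5 genes were called higher. Without serum Psat1 was not called (adjusted p = 0.072), nor without FA (0.26), nor without the course as a block (0.12).

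On days 2.5 and 3, 5 of the 10 genes (Chac1, Asns, Psat1, Psph and Shmt2) were lowest in serum on both days in both media. The other 5 were not, and Phgdh from SL, for example, was at 213 and 221 CPM in serum, above the 203 and 192 of serum-free culture and below the 254 and 278 of FA. The share of all genes lowest in serum on both days in both media was not counted. Psat1 was at 235 and 204 CPM in serum from 2iL, against 482 and 597 in FA and 399 and 410 in serum-free culture. From SL it was at 219 and 211 CPM in serum, against 438 and 465 in FA and 308 and 318 in serum-free culture. The values of serum did not overlap with those of the other courses in either medium. Relative to the mean of FA and serum-free culture, Psat1 was lower in serum by a log2 fold change of -1.01 (SE 0.15, adjusted p = 9.4e-06). The same difference was -1.84 for Chac1 (SE 0.30, adjusted p = 3.6e-05), -1.23 for Asns (SE 0.22, adjusted p = 0.00013) and -1.12 for Trib3 (SE 0.18, adjusted p = 3.8e-05). It was -0.87 for Mthfd2 (SE 0.17), -0.85 for Psph (SE 0.13), -0.72 for Shmt2 (SE 0.18) and -0.41 for Phgdh (SE 0.11), with adjusted p-values between 1.2e-05 and 0.0054. Hence 8 of the 10 genes were lower in serum, where 18.9% of the 16467 genes tested were called lower. Atf4 (-0.33, SE 0.13, adjusted p = 0.053) and Ddit3 (-0.01, SE 0.27, adjusted p = 0.98) were not. With the libraries from 2iL alone 9 genes were lower, and with those from SL alone 5, when Phgdh, Shmt2 and Mthfd2 did not pass the test. Whether this difference of the serum course was unlike between the media was itself tested. None of the 10 genes passed that test with edgeR or DESeq2 (2.87% of the 16946 genes tested passed with edgeR), while 2 had an unadjusted p under 0.05.

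On days 1, 1.5 and 2 serum was also below the mean of the adherent courses for 6 genes. Of these, Trib3, Psat1 and Psph were lowest in serum on each day in both media. Chac1, Asns and Mthfd2 were lowest there in 5 of the 6 pairs of medium and day. How many of all genes were lowest in serum as often was not counted. At day 0 in 2iL, before differentiation, the library labelled EB was already lowest of the 3 for all 10 genes. The share of all genes lowest in that library was not counted. The median ratio of highest to lowest was 1.34 at day 0, against 1.39, 1.33 and 1.47 on days 1, 1.5 and 2 from 2iL. Day 0 was not in this fit, and its part in the difference was not tested. Chac1 was at 1.09, 4.28 and 2.37 CPM in serum from 2iL and at 2.57, 7.37 and 5.37 from SL. In the adherent courses it was between 3.30 and 9.29 from 2iL and between 6.54 and 21.7 from SL, so the ranges overlapped over the days. The log2 fold change, which compares courses within a day, was -1.28 (SE 0.25, adjusted p = 0.00038). Psat1 (-0.60, SE 0.12), Trib3 (-0.60, SE 0.15), Asns (-0.46, SE 0.18), Mthfd2 (-0.45, SE 0.13) and Psph (-0.41, SE 0.10) were lower too, with adjusted p-values between 0.00032 and 0.043. These 6 of the 10 genes were lower in serum where 15% of all genes were called lower. With the libraries from SL alone 3 genes were lower, which left out Asns, Psph and Mthfd2. Whether the difference of the serum course on days 1, 1.5 and 2 was unlike between the media was also tested. None of the 10 genes passed with edgeR or DESeq2, nor had an unadjusted p under 0.05 (2.77% of all genes passed with edgeR).

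Only 1 of the 10 genes was called between serum and the adherent courses on days 5 and 7. Relative to the mean of FA and serum-free culture, Trib3 was higher in serum (log2 fold change 0.63, SE 0.18, adjusted p = 0.0087), and the other 9 genes did not pass the test, where 17.6% of all genes were called higher. Trib3 was at 19.9 and 27.1 CPM in serum from 2iL on days 5 and 7, against 20.5 in FA on day 7 and 6.59 and 5.25 in serum-free culture. From SL it was at 21.01 and 17.2 CPM in serum, against 28.9 and 35.8 in FA and 6.86 and 7.44 in serum-free culture, so that serum lay between the others. With the libraries from SL alone Trib3 was not called (0.25, adjusted p = 0.43). With those from 2iL alone 4 genes were higher in serum, Atf4, Ddit3 and Shmt2 besides Trib3.

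**Figure D3:**
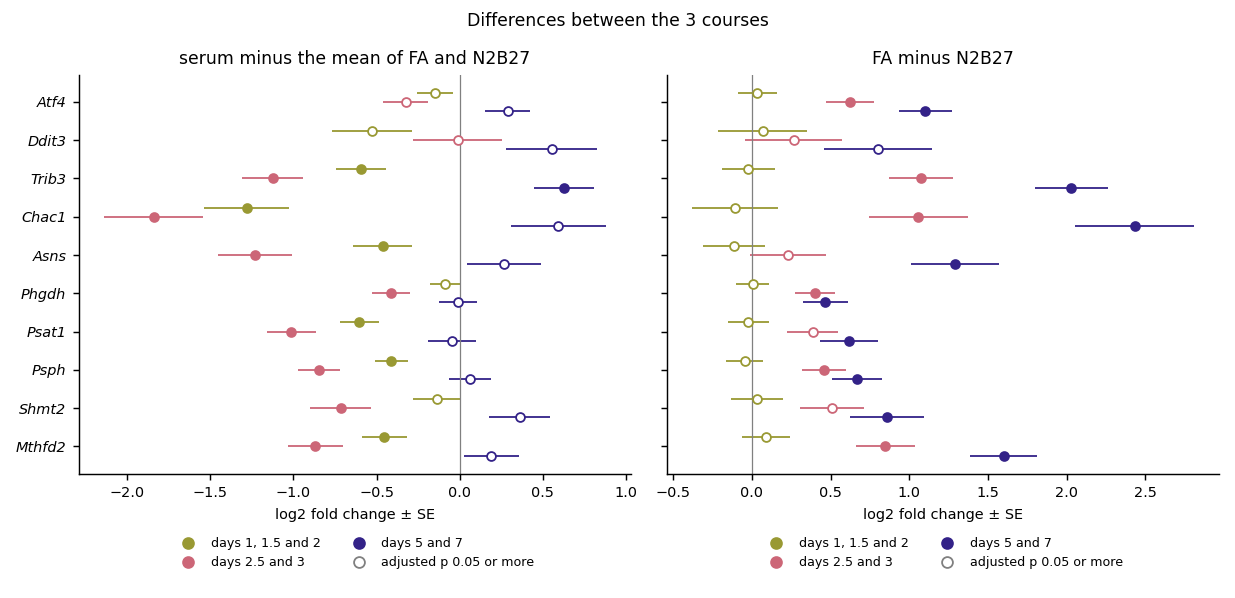
Log2 fold change with its SE (horizontal axis) for each gene, for serum against the mean of the other courses on the left and FA against serum-free culture (N2B27 alone) on the right, with colours for the 3 groups of days and open circles for an adjusted p of 0.05 or more. On days 2.5 and 3 the filled points of serum run from -1.84 to -0.41, and on days 5 and 7 those of FA run from 0.47 to 2.43.

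The 2 adherent courses share their basal medium and differ in Fgf2 and Activin A. On days 1, 1.5 and 2 they were not told apart by these genes. The log2 fold changes of FA against serum-free culture lay between -0.11 and 0.09 with SEs of 0.11 to 0.28, and none of the 10 genes passed the test with edgeR or DESeq2, nor had an unadjusted p under 0.05, while 2.13% of all genes passed with edgeR. On days 2.5 and 3, 6 of the 10 genes were higher in FA, where 6.69% of all genes were called higher. Trib3 was at 22.2 and 45.5 CPM in FA from 2iL against 12.6 and 17.6 in serum-free culture, and at 22.8 and 34.3 against 12.8 and 10.9 from SL. FA was above serum-free culture on each day in each medium (log2 fold change 1.07, SE 0.20, adjusted p = 0.0012). Chac1 (1.06, SE 0.31, adjusted p = 0.027), Mthfd2 (0.85, SE 0.19, adjusted p = 0.0038), Atf4 (0.62, SE 0.15, adjusted p = 0.0077), Psph (0.46, SE 0.14, adjusted p = 0.030) and Phgdh (0.40, SE 0.13, adjusted p = 0.039) were higher in FA as well. Within one medium, where fewer libraries enter, 1 gene (Trib3) was called from 2iL and 2 (Trib3 and Mthfd2) from SL.

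On days 5 and 7 the separation of FA from serum-free culture covered 9 of the 10 genes, where 18.6% of all genes were called higher in FA. Chac1 was at 30.1 CPM in FA from 2iL on day 7, against 3.73 and 4.68 in serum-free culture on days 5 and 7. From SL it was at 11.8 and 55.5 CPM in FA against 4.68 and 5.23, so that the courses did not overlap (log2 fold change 2.43, SE 0.38, adjusted p = 2.4e-05). Mthfd2 was at 130 CPM in FA from 2iL and at 70.1 and 158 in FA from SL. In serum-free culture it was at 32.7 and 29.8 CPM from 2iL and at 35.0 and 39.3 from SL, again without overlap (1.60, SE 0.21, adjusted p = 3.1e-06). Trib3 differed by 2.03 (SE 0.23, adjusted p = 4.5e-07), Asns by 1.29 (SE 0.28, adjusted p = 0.00083) and Atf4 by 1.1 (SE 0.17, adjusted p = 2.1e-05). Shmt2 (0.86, SE 0.23), Psph (0.67, SE 0.16), Psat1 (0.62, SE 0.18) and Phgdh (0.47, SE 0.14) had smaller differences, with adjusted p-values between 0.0021 and 0.013. Psat1 and Psph overlapped between the courses. From SL, Psat1 on day 5 was at 217 CPM in FA, below the 247 of serum-free culture. Psph from SL was at 17.0 CPM in FA on day 5 and at 17.2 in serum-free culture on day 7. Ddit3 was not called (0.80, SE 0.34, adjusted p = 0.070), though it was with library totals in place of TMM factors. With the libraries from 2iL alone, where FA has 1 late library, 4 genes were called higher (Atf4, Trib3, Chac1 and Mthfd2).

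Within the FA course from SL, day 5 stood below its neighbours. Chac1 went from 39.2 CPM on day 3 to 11.8 on day 5 and 55.5 on day 7, Asns from 311 to 175 and 444, and Psat1 from 465 to 217 and 532. Of the 10 genes, 9 were lower on day 5 than on day 3, with a median ratio of 0.558, and Ddit3 was the exception. With 1 library for this day there is no test of the dip, and the share of all genes with such a dip was not counted. The fibroblast markers summed to 94.9 and 358 CPM in FA from SL on days 5 and 7 and to 772 in FA from 2iL, against 15.1 to 64.9 in serum-free culture and 3.94 to 87.9 in serum. All 4 of them were higher in FA than in serum-free culture, as were all 4 formative epiblast markers (Fgf5, Otx2, Pou3f1 and Dnmt3b), and 2 of the 4 neural markers (Pax6 and Tubb3) were lower. Of the 6 mesendoderm markers 3 were higher and 3 lower. Their part in the difference of the 10 genes was not tested.

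In the serum course from 2iL the CPM of all 10 genes was higher on day 7 than on day 3, with a median ratio of 2.14. In the FA and serum-free courses from 2iL it was lower for all 10, with median ratios of 0.603 and 0.428, which single libraries cannot test. These are ratios of CPM without TMM factors, and the share of all genes that moved in the same way was not counted. Asns went from 123 CPM on day 3 to 185 on day 5 and 387 on day 7 in serum, and Shmt2 from 78.7 to 86.5 and 198. In serum from SL, Asns was at 128, 139 and 178 CPM on the same days and Shmt2 at 111, 73.6 and 120. The steepest case was Ddit3, at 9.31, 20.3 and 33.7 CPM in serum from 2iL and at 15.4, 21.98 and 9.12 from SL. The log2 fold change of Ddit3 in serum on days 5 and 7 was higher in cells from 2iL than in those from SL, by 1.54 (SE 0.39, adjusted p = 0.028). The other 9 genes did not pass this test, where 2.23% of all genes were called higher. With day 5 left out, an alternative added after the values were seen, 6 genes passed it, Atf4, Trib3, Asns, Psat1 and Shmt2 besides Ddit3, whose difference was then 2.51. Serum from 2iL and from SL on day 7 are single libraries.

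Against the early days 1, 1.5 and 2, days 5 and 7 from 2iL had 5 genes higher and none lower, where 37.3% of all genes were called higher. They were Ddit3 (log2 fold change 2.95, SE 0.30, adjusted p = 3.1e-07), Chac1 (1.77, SE 0.54, adjusted p = 0.0077), Trib3 (1.30, SE 0.39, adjusted p = 0.0071), Phgdh (0.89, SE 0.13, adjusted p = 2e-05) and Psat1 (0.51, SE 0.19, adjusted p = 0.025). Without serum the fold changes of Trib3, Chac1 and Psat1 were 0.32, 0.47 and 0.16, with adjusted p-values of 0.47, 0.46 and 0.39, and Asns and Shmt2 were called lower. Without FA, 2 genes were called (Ddit3 and Phgdh). From SL, 4 genes passed where 70.2% of all genes did. Ddit3 (2.17, SE 0.17), Trib3 (0.72, SE 0.27) and Phgdh (0.32, SE 0.10) were higher, and Shmt2 was lower (-0.65, SE 0.14), with adjusted p-values between 2.3e-08 and 0.026. Without the serum-free course 7 genes passed, and without serum or FA Trib3 was not called.

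The late days were also compared with the undifferentiated cells. From 2iL, Asns was lower on days 5 and 7 than at day 0 (log2 fold change -1.74, SE 0.42, adjusted p = 0.0019). It had been between 583 and 682 CPM, and lay between 79.7 and 387 in the 5 late libraries. Ddit3 was higher (1.81, SE 0.41, adjusted p = 0.0011), at 8.86 to 33.7 CPM against 4.10 to 4.66. Phgdh was higher too (0.95, SE 0.18, adjusted p = 0.00029), at 130 to 212 CPM against 67.8 to 94.9, and so was Chac1 (1.85, SE 0.75, adjusted p = 0.039), whose late values of 3.73 to 30.1 CPM overlapped those of day 0, 2.41 to 6.72. Without serum the log2 fold change of Chac1 was 0.55 (adjusted p = 0.50), and it was not called without FA or without the block either. In all, 4 of the 10 genes passed where 64.7% of all genes did. From SL, 3 genes were lower than in the single day 0 library, where 21.7% of all genes were called lower, namely Asns (-1.36, SE 0.37, adjusted p = 0.0082), Psph (-1.02, SE 0.27, adjusted p = 0.0067) and Shmt2 (-0.99, SE 0.25, adjusted p = 0.0054). With day 5 left out Psph remained of them, and without FA 6 genes were lower.

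Before differentiation Chac1, Ddit3 and Trib3 differed between the starting media. At day 0, Chac1 was at 2.41, 3.19 and 6.72 CPM in the 3 libraries in 2iL and at 25.8 in SL (log2 fold change of 2iL against SL -2.58, SE 0.45, adjusted p = 0.0032). Ddit3 was at 4.10 to 4.66 CPM in 2iL and 15.5 in SL (-1.78, SE 0.25, adjusted p = 0.0010), and Trib3 at 10.97 to 17.0 and 39.4 (-1.5, SE 0.27, adjusted p = 0.0034). Of the other enzymes, Mthfd2 was at 40.6, 53.4 and 65.0 CPM in 2iL and 126 in SL (-1.18, SE 0.25, adjusted p = 0.0076), and Psph at 19.5, 27.1 and 24.9 and 42.4 (-0.77, SE 0.21, adjusted p = 0.022). These 5 were lower in 2iL where 17.3% of the 14948 genes tested were called lower. Asns was at 583 to 682 CPM in 2iL and 470 in SL, which did not pass the test (0.50, SE 0.20, adjusted p = 0.091), and neither did Atf4, Phgdh, Psat1 or Shmt2. With DESeq2 Asns and Phgdh passed as well. The spread comes from 2iL alone, as SL has 1 library. That library is also the day 0 of the comparisons of days from SL above, so those results and these are not independent.

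On days 1, 1.5 and 2 of differentiation, 7 of the 10 genes differed where 42.7% of all genes did. Phgdh was at 61.7 to 124 CPM from 2iL and at 93.2 to 211 from SL, ranges that overlapped over the days, with a log2 fold change of -0.66 (SE 0.09, adjusted p = 1.4e-06). Chac1 (-1.01, SE 0.23), Ddit3 (-0.71, SE 0.23), Trib3 (-0.69, SE 0.14), Psph (-0.50, SE 0.09) and Mthfd2 (-0.45, SE 0.12) were lower from 2iL as well, with adjusted p-values between 0.00014 and 0.014. Atf4 went the other way (0.34, SE 0.10, adjusted p = 0.0087). When the course was not a block, 2 of the 7 were called, Ddit3 and Phgdh. On days 2.5 and 3 Atf4 alone was higher from 2iL (0.61, SE 0.12, adjusted p = 0.0014), where 9.39% of all genes were. It was at 200, 314 and 192 CPM on day 2.5 and 196, 375 and 225 on day 3 in serum, FA and serum-free culture from 2iL, and from SL at 149, 201 and 135 and then 159, 215 and 124. Without the course as a block Atf4 was not called (adjusted p = 0.13), nor without the serum-free course (0.076), and without serum 3 genes were. On days 5 and 7 the log2 fold changes of the 10 genes lay between -0.14 and 0.26 with SEs of 0.11 to 0.29. None passed the test with edgeR or DESeq2, nor had an unadjusted p under 0.05, while 4.96% of all genes passed with edgeR.

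**Figure D4:**
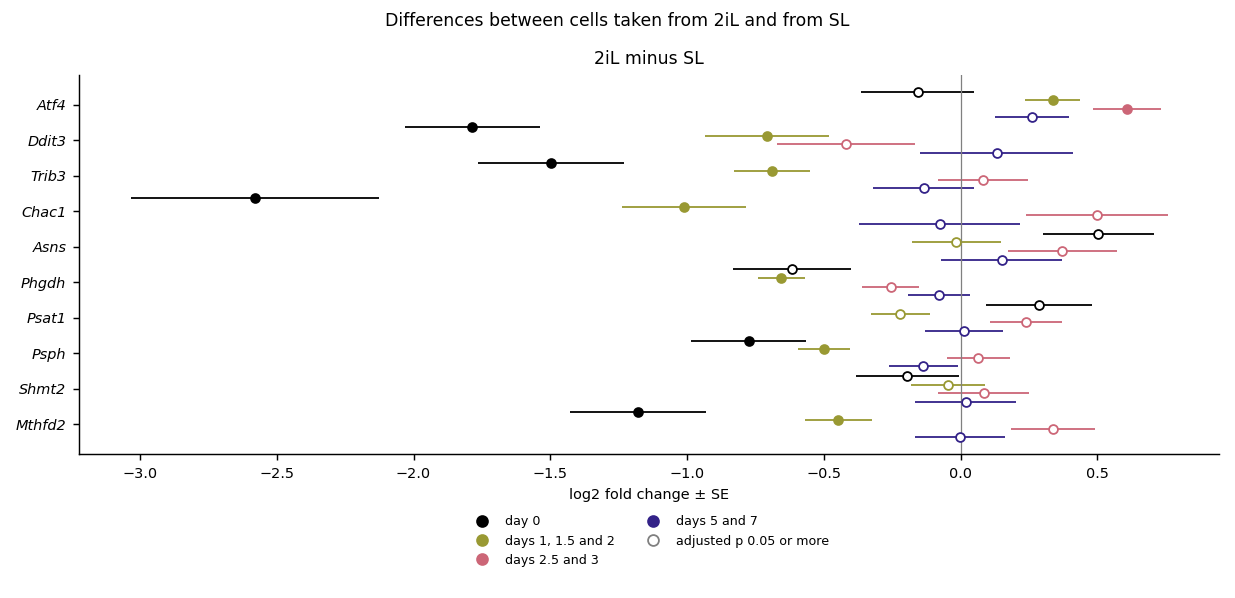
Log2 fold change of 2iL against SL with its SE (horizontal axis) for each gene, with colours for day 0 and the 3 groups of days and open circles for an adjusted p of 0.05 or more. The filled points at day 0 run from -2.58 for Chac1 to -0.77 for Psph, and no point of days 5 and 7 is filled.

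Genes of the same pathways that are not among the 10 were counted from lists. They are 20 other ATF4 targets, 12 tRNA synthetases known as ATF4 targets and 8 other cytosolic ones, 11 amino acid transporters, 16 other genes of one-carbon and glycine metabolism, 18 targets of ATF6 and XBP1 (chiefly chaperones of the endoplasmic reticulum) and 6 genes for eIF2 alpha, its kinases and a phosphatase subunit. On days 5 and 7, 12 of the 20 other ATF4 targets were higher in FA than in serum-free culture and none was lower, with a median log2 fold change of 0.80 beside 0.01 over all genes tested. Of all genes tested, 18.6% were called higher in FA on these days and 17.3% lower. Cth, which makes cysteine, differed by 2.74 (SE 0.23, adjusted p = 4.4e-09). Fgf21, a secreted hormone, had a larger fitted difference but was at most 0.736 CPM on those days, so no fold is given. Of the tRNA synthetases known as ATF4 targets 11 of 12 were higher, such as Cars (1.06, SE 0.15) and Lars (1.02, SE 0.13), and Wars was lower (-0.45, SE 0.11). The median was 0.73, against 0.22 for the 8 others, of which 4 were higher. Among the transporters 7 of 11 were higher, led by Slc7a3 (3.01, SE 0.30) and Slc7a11 (2.72, SE 0.40), which imports cystine, and Slc38a1 (-0.69, SE 0.09) and Slc38a2 (-0.39, SE 0.12) were lower. In one-carbon metabolism 7 of 16 were higher, with Aldh1l2 (1.12, SE 0.33) and Mthfd1l (0.84, SE 0.10) in front, and Gcsh was lower (-0.34, SE 0.11). Of the 18 ATF6 and XBP1 targets, 8 were lower in FA and none was higher, with a median of -0.29, where 17.3% of all genes were called lower, and Xbp1 itself (-0.89, SE 0.12) and the chaperone gene Sdf2l1 (-0.84, SE 0.18) were lowest. Of the 6 genes around eIF2 alpha, Eif2s1 was higher (0.71, SE 0.08) and Eif2ak3 lower (-0.42, SE 0.13).

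On days 2.5 and 3, 11 of the 20 other ATF4 targets were lower in serum than in the adherent courses and 1, Cbs, was higher (1.76, SE 0.22), with a median of -0.48 beside 0.00 over all genes. Of all genes tested, 18.9% were called lower in serum on these days and 20.5% higher. The largest differences were those of the transcription factor genes Atf5 (-1.85, SE 0.21) and Atf3 (-1.69, SE 0.35). Of the tRNA synthetases known as ATF4 targets 9 of 12 were lower, led by Gars (-0.52, SE 0.09) and Cars (-0.51, SE 0.12), and of the 8 others Qars (0.18, SE 0.06) and Kars (0.16, SE 0.06) were higher and none was lower, where 20.5% of all genes were called higher. Of the transporters 7 of 11 were lower, chiefly Slc7a1 (-1.89, SE 0.24), which imports arginine and lysine, and the glycine carrier Slc6a9 (-1.54, SE 0.26). Slc7a3 (0.84, SE 0.22) and Slc38a2 (0.50, SE 0.09) were higher. The 16 one-carbon genes were divided, with 6 higher, Mthfd2l (0.72, SE 0.19) and Amt (0.66, SE 0.15) among them, and 3 lower, led by Aldh1l2 (-2.79, SE 0.30). Here 15 of the 18 ATF6 and XBP1 targets were lower too, with a median of -0.52, and Hspa5 (-0.82, SE 0.12) and Sdf2l1 (-0.80, SE 0.14) had the largest differences. Of the 6 genes around eIF2 alpha Eif2ak1 was higher (0.29, SE 0.08). All 4 formative epiblast markers were higher in serum, by a median of 2.08, and 3 of the 4 neural markers were lower. Their part in the difference was not tested.

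On the first day, other ATF4 targets were lower as well. From 2iL 5 of the 19 tested were lower at day 1 than at day 0 and none was higher (median -0.63), where 14% of all genes were called lower. Nupr1 (-2.91, SE 0.50) and Pck2 (-1.95, SE 0.61) were in front. From SL 9 of 20 were lower and none was higher (median -1.13), where 9.69% of all genes were called lower. Nupr1 (-3.09, SE 0.55) and Gdf15 (-2.76, SE 0.60) led them. None of the ATF6 and XBP1 targets was called lower. From 2iL 5 of 18 were higher at day 1, where 14.6% of all genes were (Xbp1, 1.11, SE 0.23, and Manf, 0.60, SE 0.18, at the top). From SL 2 of 18 were, near the 8.45% of all genes (Hspa5, 0.89, SE 0.28, and Manf, 0.74, SE 0.21). At day 0, 10 of the 19 other ATF4 targets tested were lower in 2iL than in SL and none was higher (median -0.86), where 17.3% of all genes were called lower. Cebpb (-2.48, SE 0.54) and Atf3 (-1.90, SE 0.42) were lowest, while 1 of the 12 tRNA synthetases, Nars (-0.55, SE 0.18), was lower. The counts for day 1 from SL and for the media at day 0 rest on the same SL library.

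Over the 45 libraries most of the 10 genes varied together. The Pearson r of log2(CPM + 1) was above 0 for 42 of the 45 pairs of genes, with a median of 0.63. These libraries share days, courses and media, so they are not independent points and r is given as a description. The closest pairs were Psph with Mthfd2 (r = 0.88), Chac1 with Mthfd2 (0.87) and Trib3 with Chac1 (0.87). Asns and Phgdh, both ATF4 targets, had an r of -0.06, with Asns at 583 to 682 CPM at day 0 in 2iL where Phgdh was at 67.8 to 94.9. Ddit3 and Shmt2 had the lowest, -0.22.

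**Figure D5:**
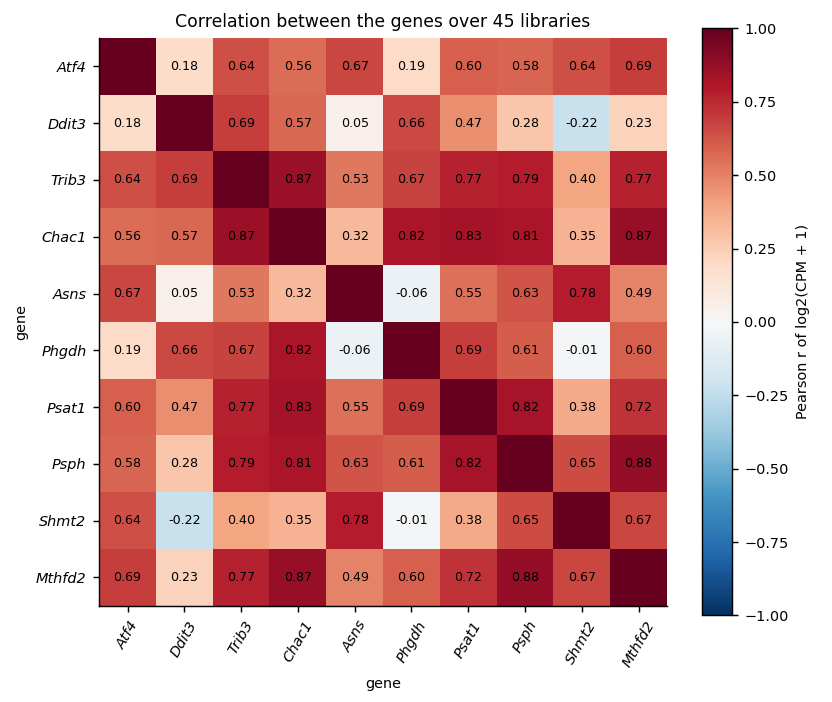
Pearson r of log2(CPM + 1) over the 45 libraries for each pair of the 10 genes (both axes), with red for values above 0 and blue for values below 0. Psph, Mthfd2, Chac1, Trib3 and Psat1 have values of 0.72 to 0.88 with each other, and the pairs of Ddit3 with Shmt2, Asns with Phgdh and Phgdh with Shmt2 are below 0.

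The genes outside the 10 whose pattern was most like that of Trib3, among 16083 genes, were Pck2 (r = 0.92), Gars (0.89), Sars (0.86), Adm2 (0.85) and Slc1a4 (0.83). Those most like Asns were Cars (0.87), Bcat1 (0.81), Arl15 (0.81), Aars (0.80) and She (0.80). For Phgdh they were Mlf1 (0.89), Nkd2 (0.89), Pcbp3 (0.88), Klc2 (0.88) and Rbm46 (0.87). With a pseudocount of 0.1 CPM in place of 1, the same 5 genes led for Trib3 and for Asns, but 2 of the 5 for Phgdh. With the 23 libraries from 2iL alone, 4 of these 5 genes again led for Trib3, 2 for Asns and 0 for Phgdh, and with the 22 from SL 3, 3 and 1.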

How the data were processed

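Total RNA depleted of ribosomal RNA was sequenced from directional libraries, 1 for each starting medium, course and day. Per the labels and the study's methods, the authors' reads were trimmed and aligned with TopHat2 to GRCm38, and strand-specific counts were made by featureCounts. The deposited values are these raw counts, without normalization. CPM is the count over the library total, times 1000000. The 435 rows without a symbol held at most 0.0014% of a library. Comparisons were fitted here on all genes with edgeR 4.0.16 in R 4.3.3 (TMM factors, filterByExpr, quasi-likelihood test), with Benjamini-Hochberg adjustment over all genes tested and a threshold of 0.05. Days were compared within a medium with the course as a block, as the labels name it. Media and courses were compared over the libraries from day 1 on, with medium and day as terms and the course for each group of days. The SE is the log2 fold change divided by the root of F. Alternatives were DESeq2 1.42.0, library totals, no filter, no block, each course left out, each medium alone and, added after the values were seen, day 5 left out and days 0 and 1 only. The 10 genes and the lists were chosen with earlier results of these data known. In the lists, the 2 called genes with the largest rise and the largest fall were named in the comparisons described. Positions are from GENCODE M21, and promoter windows from RefSeq; 11 windows matched the 10 genes. No 2 libraries of the 43 pairs of a medium and day differed by less than 18.6 times the counting noise. On simulated counts with 2-fold and 4-fold changes, the edgeR model recovered 45% and 73% of them for days 5 and 7 against day 0 in 2iL, with 6.35% of the calls false over 15770 genes, and 72% and 90% for serum on days 5 and 7, with 2.41% of the calls false over 15821 genes. The simulated libraries were independent and held no other effect of day, medium or course. These shares therefore do not cover the use of successive days of a course as replicates.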

Additional observations from a re-analysis of the deposited data

Results flagged for a closer look

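The difference of the serum course from the adherent courses in Ddit3 was unlike between the media. On days 5 and 7 the difference of serum from the mean of the adherent courses was larger in cells from 2iL than in cells from SL by 1.54 on the log2 scale (SE 0.39, adjusted p = 0.028), by the interaction term of the edgeR model. Ddit3 was at 20.3 and 33.7 CPM in serum from 2iL, above FA on day 7 (8.86) and serum-free culture (12.0 and 9.18). From SL it was at 21.98 and 9.12 CPM in serum, against 25.7 and 19.1 in FA and 9.14 and 10.0 in serum-free culture. The median total of the serum-course libraries from 2iL was 34490692 counts, against 17297450 for the other libraries, and day 5 of FA from 2iL was not analysed here. Their part in the difference was not tested.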

How the results depend on the processing

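Of the 76 fold changes of the 10 genes that passed the test, none changed sign in the 488 values of the alternatives, and 72 of these values no longer passed. Of the 134 that had not passed, 80 of 812 alternative values changed sign, none of them past the threshold, and 56 passed. Of the 118 fold changes of list genes largest in their comparison, none changed sign in 722 alternative values, and 98 of these no longer passed. For the 10 genes no call was lost with DESeq2 or with library totals in place of TMM. The number of genes called moved by more than 1.5 times as follows. From 2iL, day 1 against day 0 gave 2, with DESeq2 4, without the replicate block 0, with days 0 and 1 only 6 and with a course left out 0 to 3. Days 5 and 7 against days 1, 1.5 and 2 gave 2 to 6 with a course left out (5 with all), and days 2.5 and 3 gave 4 to 8 (7). From SL, day 1 against day 0 gave 2 without the filter and 1 to 5 with a course left out (4). Days 5 and 7 gave 3 to 7 (4) against days 1, 1.5 and 2, and against day 0 3 to 6 (3) and 1 with day 5 left out. Days 2.5 and 3 gave 2 to 5 (3). For 2iL against SL, days 1, 1.5 and 2 gave 2 without the block (7), and days 2.5 and 3 gave 0 without it and 0 to 3 with a course left out (1). For serum against the adherent courses, the libraries from SL alone gave 3 (6), 5 (8) and 0 (1) on the 3 groups of days, and on days 5 and 7 those from 2iL gave 4 and leaving out day 5 gave 2. For FA against serum-free culture, those from 2iL gave 1 and those from SL 2 on days 2.5 and 3 (6), and those from 2iL 4 on days 5 and 7 (9). The interaction on days 5 and 7 gave 6 with day 5 left out (1). A fit of 1 medium has fewer libraries. The cause of the other changes was not tested.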
